A study of Mus musculus with 6 samples.

Results

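The transcription factors and cofactors that set the fibre type of skeletal muscle were followed in hind leg muscle of control (Con) and exercise-trained (EX) mice. They were chosen as a list of 9 genes by their known roles, with earlier results of these data already known. All 9 were found by gene symbol among the 16759 genes of the deposited table. They were divided by the direction in which each is known to act. Sox6, Six4, Eya1, Tbx15 and Maf were placed on the fast side, which holds the repressor of slow genes and the activators of fast or glycolytic genes. Prox1, Vgll2, Tead1 and Tead4 were placed on the slow side, where the place of Tead4 itself is the least settled.

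RNA was sequenced in 3 Con and 3 EX libraries, from mice that were all male C57BL/6J and 8 weeks old when the protocol began. Each library was taken as 1 mouse, though the paper does not state how many mice went into each. The EX mice ran on a treadmill in sessions of 60 min, with 5 sessions per week over 6 weeks and a distance of 22 km per mouse, and tissue was taken 24 h after the final session. The Con mice received no treadmill training. Both groups were perfused with saline and had the intermuscular fat removed, and the sources do not say which hind leg muscles went into each library, so a difference between the groups in the muscles taken was not tested. Total estimated counts lay between 13845362 and 16240431 per library. The 8 listed markers of skeletal muscle fibres summed to 76158 to 82364 CPM in Con and 83125 to 87823 CPM in EX, without overlap. CPM is the count of a gene relative to the TMM-scaled total of its library, and it can be compared between libraries. In such bulk tissue, fewer cells of a type and less RNA per cell cannot be told apart.

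Adult muscle mixes slow fibres, which carry the Myh7 myosin and use oxygen steadily, with fast fibres, which carry the myosins of Myh2, Myh1 and Myh4. Sox6 holds slow genes down in fast fibres, while Six4 with its EYA coactivators, TBX15 and the large MAF proteins favour fast or glycolytic genes. TEAD proteins bind the MCAT motif of many muscle genes and need a partner such as VGLL2, YAP or TAZ to act, and PROX1 is known for its part in the slow programme and for its role in lymphatic endothelium.

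Of the 9 members, 2 differed between the groups, with 1 on each side. Tbx15 rose by 0.34 on the log2 scale in EX and Vgll2 fell by 0.69, while the other 7 were not past the threshold. Fold changes are EX over Con from edgeR's quasi-likelihood test on counts, and the threshold was a Benjamini-Hochberg adjusted p under 0.05 over the 10883 genes whose mean FPKM reached 1. FPKM is the authors' value of a count relative to transcript length and library size. Of the 8 members above this filter, 1 was higher and 1 lower, against a background of 17.9% of all genes tested in either direction, 9.11% higher and 8.8% lower. That even split of 991 higher and 958 lower genes depended on the scaling, with 772 higher and 1259 lower when the 20 most abundant genes were left out of the totals, 411 and 1037 in limma on log2(FPKM + 0.1), and 340 and 1684 in limma on log2(TPM + 0.1). The median log2 fold change of these 8 was -0.01, and that of all genes tested was -0.00. The EX values lay clear of the Con values for 3 of the 8 members, against 33.7% of all genes tested.

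**Figure D1:**
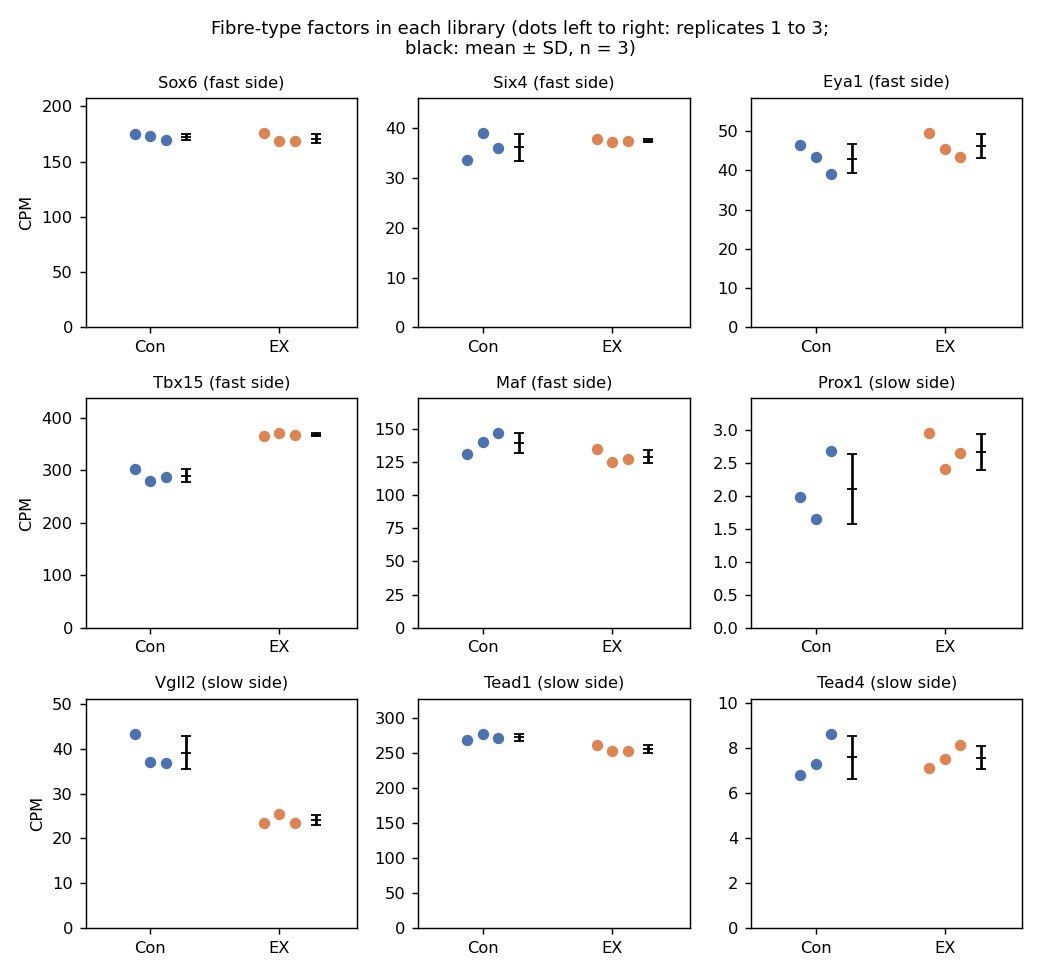
Level of each of the 9 factors in CPM (vertical axes from 0) in the 3 Con and 3 EX libraries, with points for libraries and a bar for mean ± SD. The Tbx15 points of EX (365.0 to 370.5) lie above those of Con (279.5 to 302.7), the Vgll2 points of EX (23.4 to 25.5) lie below those of Con (36.9 to 43.4), and most other panels overlap.

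The promoters below are those of the gene with the largest change among the members, of the slow-gene repressor and of the slow myosin gene. They were searched for letters that the factors followed here, or MEF2, are known to bind. They are RefSeq windows on GRCm38.p6 from 250 bases before to 50 bases after an annotated start, read along the gene's strand, and windows were found for 4 of the 9 members. Capitals mark a match to 1 of 7 motifs searched on both strands. These were CATTCC (MCAT, bound by TEAD), ACAAAG and ACAATG (SOX), TCAGGTT (the MEF3 core, bound by Six4), TGCTGAC (the MAF core), AGGTGTGA (T-box) and TATTTTTA (the MEF2 core), and no printed match shares a base with another.
Vgll2, chr10:52022252-52022551, plus strand: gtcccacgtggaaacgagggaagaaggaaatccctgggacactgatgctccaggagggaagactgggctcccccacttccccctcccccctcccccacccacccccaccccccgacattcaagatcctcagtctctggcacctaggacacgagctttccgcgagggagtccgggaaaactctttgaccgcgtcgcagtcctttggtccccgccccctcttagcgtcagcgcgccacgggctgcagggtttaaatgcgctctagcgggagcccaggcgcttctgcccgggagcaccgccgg
Sox6, chr7:116038695-116038994, minus strand: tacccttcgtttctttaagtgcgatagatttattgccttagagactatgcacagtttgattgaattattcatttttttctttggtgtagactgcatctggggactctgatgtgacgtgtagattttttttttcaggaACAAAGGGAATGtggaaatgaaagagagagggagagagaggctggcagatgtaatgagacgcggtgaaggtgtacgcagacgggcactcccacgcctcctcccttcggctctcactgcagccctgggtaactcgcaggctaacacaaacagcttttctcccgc
Myh7, chr14:54994577-54994876, minus strand: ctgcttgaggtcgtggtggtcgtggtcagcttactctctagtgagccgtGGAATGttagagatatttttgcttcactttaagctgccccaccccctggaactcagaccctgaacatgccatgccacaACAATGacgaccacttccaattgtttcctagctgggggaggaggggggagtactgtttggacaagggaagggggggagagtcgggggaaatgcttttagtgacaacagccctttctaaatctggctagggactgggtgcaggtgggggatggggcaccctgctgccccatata

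The Vgll2 window held none of the 7 motifs. The Sox6 window held ACAAAG directly followed by GGAATG, the MCAT motif read on the other strand, starting 113 and 107 bases before the start. The Myh7 window printed is 1 of 2 for that gene, and it held the same reverse MCAT letters 201 bases before the start and ACAATG 123 bases before it. The other, chr14:54994500-54994799, held the same ACAATG, 200 bases before its own start, and no MCAT match. Of the 32851 windows of all genes, 14.7% held CATTCC, 18.7% held ACAAAG and 12.6% held ACAATG on either strand. Of all windows of the members, 5 of 6 for Sox6, 1 of 2 for Six4 and 1 of 2 for Prox1 held a match to at least 1 motif. The share of all windows with a match to any of the 7 was not counted, so these counts have no background. The Six4 match was the MEF3 core, which 4.07% of all windows held. TGCTGAC was held by 4.67%, AGGTGTGA by 1.28% and TATTTTTA by 2.72% of all windows. These are matches of letters, with no measure of binding.

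Tbx15 encodes a T-box factor needed for a normal number of glycolytic fibres. Its estimated counts were 4220, 4394 and 4590 in Con and 5787, 5818 and 5800 in EX. Scaled to CPM, this was 302.7, 279.5 and 287.9 in Con against 365.0, 370.5 and 368.3 in EX. All 3 EX libraries were above all 3 Con libraries, and they lay closer together than the Con libraries did. The mean went from 290.0 ± 11.7 CPM to 367.9 ± 2.74 CPM (SD, n = 3 each), a ratio of 1.27. The log2 fold change was 0.34 with a standard error of 0.037, a 95% interval from 0.27 to 0.42 and an edgeR adjusted p of 9.1e-08. It stayed past the threshold in 15 of 15 alternative analyses, with log2 fold changes from 0.26 to 0.37.

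Vgll2 encodes the vestigial-like cofactor that joins TEAD proteins in muscle and is known for its part in the slow programme. Its estimated counts were 605, 584 and 588 in Con and 373, 400 and 369 in EX. In CPM these were 43.4, 37.2 and 36.9 in Con, and 23.5, 25.5 and 23.4 in EX. The groups did not overlap, and Con replicate 1 stood above the other Con libraries. The mean fell from 39.1 ± 3.69 CPM to 24.1 ± 1.15 CPM (SD, n = 3 each), so that Con was 1.62 times EX. The log2 fold change was -0.69 with a standard error of 0.068, a 95% interval from -0.83 to -0.55 and an edgeR adjusted p of 1.6e-08, and 15 of 15 alternatives kept it past the threshold. Only 0.634% of the genes tested had a fold change as low as that of Vgll2.

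On the fast side, Tbx15 was the 1 gene of 5 past the threshold, against 17.9% of all genes tested. The median log2 fold change was 0.05. Sox6, the SOX factor that represses slow genes in fast fibres, was at 175.0, 172.9 and 169.6 CPM in Con and at 175.7, 168.6 and 168.2 CPM in EX. The highest and the lowest of these values were both in EX, and the groups overlapped. Its log2 fold change was -0.01 with a 95% interval from -0.09 to 0.07 (edgeR adjusted p = 0.855), and it passed the threshold in 0 of 15 alternatives.

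Six4, a homeodomain factor, and Eya1, the coactivator and phosphatase that works with it, both drive fast genes. Six4 was at 33.5, 38.9 and 36.0 CPM in Con and 37.8, 37.2 and 37.4 CPM in EX, so that EX lay inside the Con range. Its log2 fold change was 0.05 with an interval from -0.07 to 0.17 (edgeR adjusted p = 0.626), and 4 of 15 alternatives gave it the other sign. Eya1 was at 46.4, 43.3 and 39.1 CPM in Con and 49.5, 45.5 and 43.4 CPM in EX. The groups overlapped, with a log2 fold change of 0.11, an interval from -0.02 to 0.23 and an edgeR adjusted p of 0.249. The value of Eya1 was 0.04 without Con replicate 3, 0.05 without EX replicate 1 and 0.16 without Con replicate 1, and none of these passed the threshold.

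Maf encodes c-MAF, a large MAF factor known to activate the type IIb myosin gene. It was at 131.3, 140.3 and 146.8 CPM in Con and 134.9, 125.3 and 127.5 CPM in EX. The highest EX library lay above the lowest Con library, Con replicate 1. The log2 fold change was -0.11 with a standard error of 0.045 (edgeR adjusted p = 0.0909). It passed the threshold in 3 of 15 alternatives, among them the fit without Con replicate 1 (log2 fold change -0.16, edgeR adjusted p = 6.7e-03). Without Con replicate 3 the log2 fold change was -0.07 (edgeR adjusted p = 0.329). In the annotation of GRCm38, an exon of Maf overlaps Gm15655 on the opposite strand, and whether the counting used strand is not given in the sources used here, so reads of these genes may not be separated.

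On the slow side, Vgll2 was the 1 gene of the 3 above the filter to pass the threshold, against 17.9% of all genes tested. The median log2 fold change was -0.09. Tead1, which encodes a DNA-binding partner of VGLL2, was at 267.5, 277.3 and 271.3 CPM in Con and 261.3, 252.6 and 252.3 CPM in EX. All EX libraries were below all Con libraries, by a small margin. The log2 fold change was -0.09 with a standard error of 0.037, an interval from -0.17 to -0.02 and an edgeR adjusted p of 0.0865. An exact permutation test over the 6 libraries, two-sided, gave p = 0.1, the smallest value that 3 against 3 allows. Tead1 passed the threshold in 4 of 15 alternatives, among them the fit without Con replicate 1 (log2 fold change -0.11, edgeR adjusted p = 0.0340). Without Con replicate 2 the log2 fold change was -0.08 (edgeR adjusted p = 0.240).

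Tead4, the TEAD gene known for its expression in myoblasts, was low in the tissue, with counts of 95, 115 and 138 in Con and 113, 118 and 128 in EX. The EX values lay inside the Con range. The means were 7.60 ± 0.951 CPM and 7.59 ± 0.505 CPM (SD, n = 3 each), and the log2 fold change of -0.01 had an interval from -0.25 to 0.24 (edgeR adjusted p = 0.979). Of 6 listed satellite cell markers above the filter, 1 (Sdc4) was higher, against 9.11% of all genes tested. Sdc4 went from 26.9 ± 1.57 CPM in Con to 34.8 ± 1.81 CPM in EX (SD, n = 3 each). Of the 6, 4 had a negative log2 fold change, and the median was -0.05. With Sdc4 included, the summed level of the 7 listed was 85.7 to 89.4 CPM in Con and 90.2 to 95.7 CPM in EX.

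Prox1 was under the filter, with counts of 28, 26 and 43 in Con and 47, 38 and 42 in EX. The values overlapped, with 2.11 ± 0.532 CPM in Con and 2.67 ± 0.272 CPM in EX (SD, n = 3 each). In a fit without the filter, which called 12% of 16759 genes, the log2 fold change was 0.34 with an interval from -0.07 to 0.74 (edgeR adjusted p = 0.330). Without Con replicate 2 it was 0.18, and without Con replicate 3 it was 0.56, neither past the threshold. Lymphatic endothelium also uses Prox1, and some markers of that cell type were higher in EX, while others were not past the threshold. Of 4 tested, 2 were higher (Lyve1 and Ccl21a) and 0 lower, against 9.11% and 8.8% of all genes tested. Flt4, the receptor of lymphatic growth factors, was at 16.4 ± 1.67 CPM in Con and 14.1 ± 0.0451 CPM in EX (SD, n = 3 each), without overlap and with a log2 fold change of -0.21 (edgeR adjusted p = 0.0816), while Pdpn had 0.37 (edgeR adjusted p = 0.171). Under the filter, Mmrn1, a matrix protein of lymphatic vessels, had counts of 14, 14 and 14 in Con and 53, 48 and 54 in EX (log2 fold change 1.82, edgeR adjusted p = 2.0e-08), and Reln had -0.27 (edgeR adjusted p = 0.282). Ccl21a alone was at 4.17 CPM in Con and 14.9 CPM in EX, and the summed level of the 6 listed was 28.1 to 32.7 CPM in Con and 43.7 to 44.9 CPM in EX. Their part in the Prox1 value was not tested. Exons of Prox1 and the opposite-strand gene Prox1os overlap in the annotation, as for Maf.

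**Figure D2:**
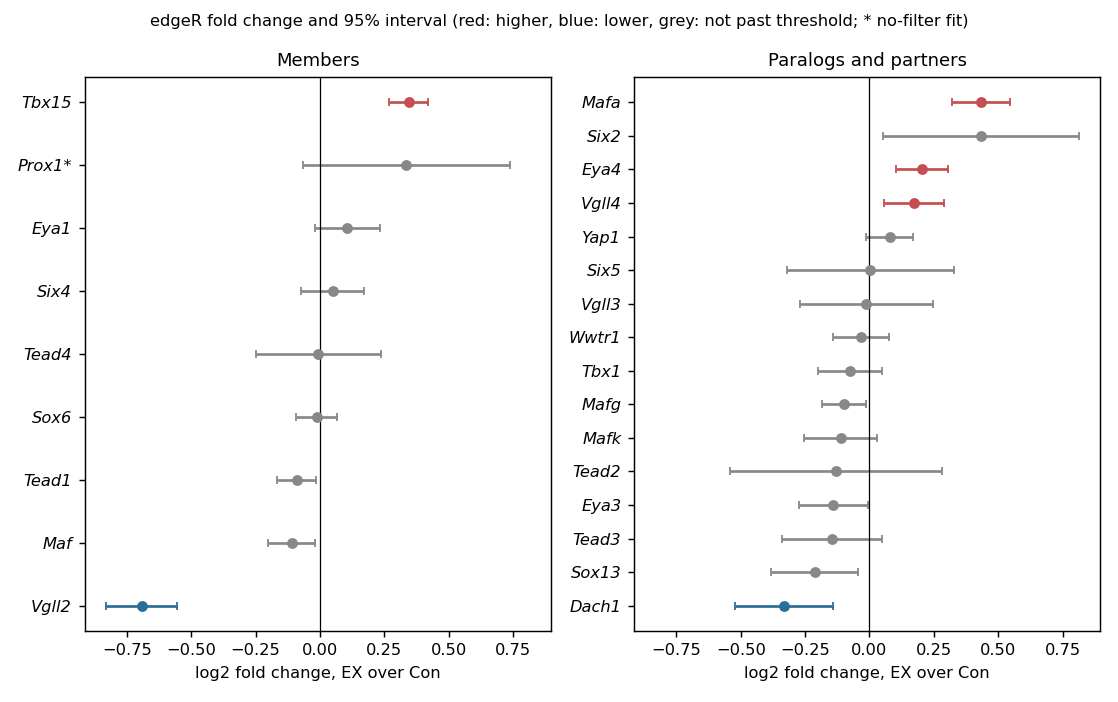
Log2 fold change of EX over Con (horizontal axis) with 95% intervals from edgeR for the 9 members on the left and paralogs and partners above the filter on the right. Of the members, Tbx15 (0.34) and Vgll2 (-0.69) are past the threshold, and Prox1, marked with an asterisk, comes from the fit without a filter.

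Levels can be set side by side between genes only per transcript length, so FPKM was used for the order of the members. In Con, Tbx15 stood first at 91.5 ± 2.73 FPKM (SD, n = 3), followed by Maf at 42.7 ± 2.79 FPKM. Vgll2 at 30.0 ± 2.51 FPKM and Tead1 at 29.0 ± 0.660 FPKM came next and overlapped. Below them were Sox6 at 20.9 ± 0.208, Eya1 at 11.0 ± 0.836, Six4 at 6.27 ± 0.506, Tead4 at 2.89 ± 0.381 and Prox1 at 0.29 ± 0.0794 FPKM. No other pair of neighbours in this order overlapped. In EX, Vgll2 stood at rank 5 in place of rank 3, at 17.8 ± 0.716 FPKM and under Sox6 at 20.0 ± 0.705 FPKM, and no pair of neighbours overlapped. The rest of the order was the same, from Tbx15 at 111.9 ± 0.689 FPKM through Maf at 38.0 ± 1.80 and Tead1 at 26.2 ± 0.711 FPKM down to Prox1 at 0.35 ± 0.0361 FPKM.

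**Figure D3:**
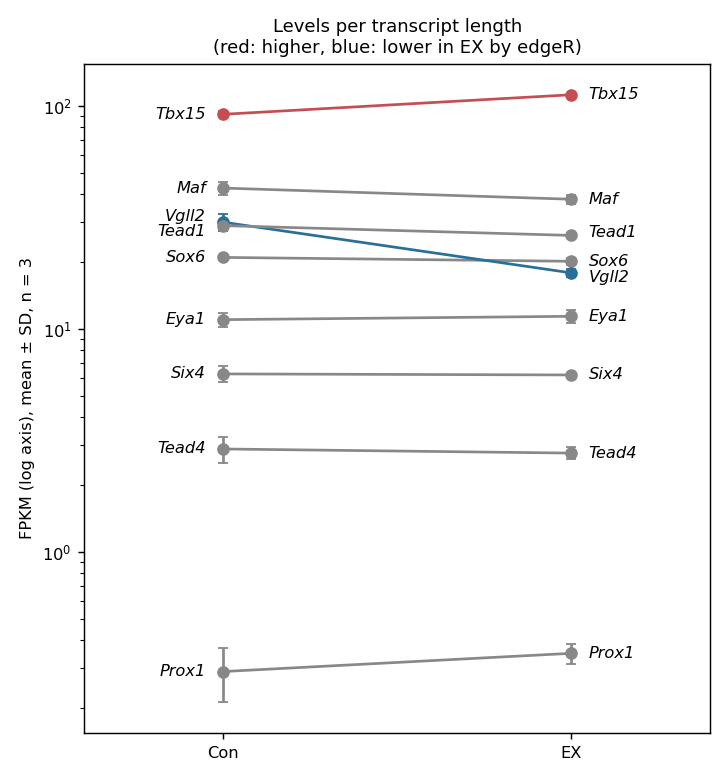
Mean level per transcript length (FPKM, log axis, ± SD, n = 3) of the 9 factors in Con and EX, with a line joining the means of each gene. Tbx15 leads in both groups, and the Vgll2 line crosses those of Tead1 and Sox6 on its way from 30.0 to 17.8 FPKM.

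Ratios of FPKM within a library do not depend on how libraries are scaled. Tbx15 was 2.86, 3.11 and 3.20 times Vgll2 in the Con libraries and 6.42, 5.97 and 6.51 times in EX. The ratio of Vgll2 to its partner Tead1 went from 1.04 ± 0.111 to 0.680 ± 0.0401 (SD, n = 3 each). That of Sox6 to Vgll2 went from 0.698 ± 0.0531 to 1.13 ± 0.0689, and that of Tbx15 to Maf from 2.15 ± 0.187 to 2.95 ± 0.123. None of these 4 ratios overlapped between the groups, and each had p = 0.1 in a two-sided exact permutation test, the smallest possible. Each holds Tbx15 or Vgll2, so the 4 ratios restate the differences of those 2 genes and add no separate support. The ratio of Tead1 to Tead4 was 10.1 ± 1.17 in Con and 9.49 ± 0.742 in EX (exact permutation p = 0.5), and that of Six4 to Eya1 was 0.574 ± 0.0701 and 0.547 ± 0.0351 (exact permutation p = 0.6). The transcript length implied by the authors' counts and FPKM differed little between the groups, with EX over Con between 0.992 for Sox6 and 1.01 for Six4.

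Of 23 paralogs and binding partners of the members found in the table, 18 were above the filter. Of these, 3 were higher and 2 lower, against 9.11% and 8.8% of all genes tested, with a median log2 fold change of -0.06. Leaving the 20 most abundant genes out of the totals gave 2 higher and 4 lower, and limma on log2(TPM + 0.1) gave 1 higher and 6 lower. Mafa, a large MAF gene like Maf, had counts of 511, 656 and 609 in Con and 817, 819 and 851 in EX. All EX libraries lay above the Con range. It rose to 52.6 ± 1.31 CPM in EX against 38.9 ± 2.60 CPM in Con (SD, n = 3 each), with a log2 fold change of 0.43 (edgeR adjusted p = 1.1e-06), and it passed the threshold in 15 of 15 alternatives. Macrophages also express Maf. In these libraries 6 of 7 macrophage markers tested were higher in EX and 0 lower, with the 9 listed summing to 44.0 to 48.4 CPM in Con and 78.6 to 86.0 CPM in EX. Their part in the value of Maf was not tested.

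Eya4, a paralog of Eya1, rose, with 55.6 ± 1.47 CPM in Con, 64.0 ± 2.15 CPM in EX and a log2 fold change of 0.20 (edgeR adjusted p = 3.2e-03). Dach1, a corepressor that can join complexes of Six4 with EYA, fell, with 12.5 ± 0.514 CPM in Con, 9.91 ± 0.485 CPM in EX and a log2 fold change of -0.33 (edgeR adjusted p = 0.0125). Eya4 was not past the threshold in the 3 limma fits on FPKM and TPM, and Dach1 was not in DESeq2 or without EX replicate 3. Dach2, also a corepressor and under the filter, had counts of 45, 57 and 83 in Con and 32, 26 and 35 in EX. All 3 EX counts lay below the Con counts, with a log2 fold change of -1.04 in the fit without a filter (edgeR adjusted p = 8.8e-05), a call absent from the 3 limma fits.

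Among the partners of TEAD, the coactivators Yap1 and Wwtr1, which encodes TAZ, were not past the threshold, with log2 fold changes of 0.08 (edgeR adjusted p = 0.234) and -0.03 (edgeR adjusted p = 0.717). Vgll3, a close relative of Vgll2, had a log2 fold change of -0.01, and Vgll4, which opposes YAP at TEAD, had 0.17 (edgeR adjusted p = 0.0351), a call found in 3 of 15 alternatives. Tead2 and Tead3 were not past the threshold. Of 22 listed genes that YAP, TAZ and TEAD are known to activate, 16 were above the filter. Of these, 4 were higher and 3 lower, against 9.11% and 8.8% of all genes tested, with a median log2 fold change of -0.02. The higher ones were Ccn2, a matricellular protein (0.42, from 14.4 ± 1.61 to 19.5 ± 1.09 CPM), Amotl2, which binds YAP (0.39), Gadd45a, a stress-response gene (0.27), and Lats2, a kinase of the Hippo pathway (0.18). The lower ones were Ptpn14, a phosphatase that binds YAP (-0.22), Crim1 (-0.17) and Igfbp3, an IGF-binding protein (-0.19). The edgeR adjusted p of these 7 lay between 3.0e-05 for Amotl2 and 0.0450 for Igfbp3. The call of Lats2 was found in 6 and that of Igfbp3 in 8 of 15 alternatives.

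The genes of both fibre programmes were set beside the factors. Of 12 slow-fibre genes above the filter, 9 were higher and 2 lower, against 9.11% and 8.8% of all genes tested. Their median log2 fold change was 0.85. Myh7, the slow myosin whose promoter is printed above, had counts of 13, 14 and 19 in Con and 1577, 1737 and 1522 in EX, a ratio of 102. Tnni1, slow troponin I, had counts of 8, 6 and 4 in Con and 174, 181 and 192 in EX, a ratio of 28.8. Both were low in every Con library, and every EX library lay above every Con library. The 2 slow-fibre genes that fell were Myoz2, a Z-disc protein (log2 fold change -0.81), and Pln, the inhibitor of the slow calcium pump (-0.69), the second of which 5 alternatives did not call.

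Of 13 fast-fibre genes, 9 were higher and 2 lower, against 9.11% and 8.8% of all genes tested, with a median log2 fold change of 0.16. The largest rises were in Pvalb, a calcium buffer of the fastest fibres (0.35), and Mylpf, a fast myosin light chain (0.30). Myh2, the IIa myosin, fell from 754.9 ± 11.9 to 450.0 ± 8.69 CPM (log2 fold change -0.75, edgeR adjusted p = 1.4e-15), and Myh1 fell by 0.09 on the log2 scale, a call that 5 alternatives lost. Myh4, the IIb myosin that c-MAF activates, had a log2 fold change of 0.04 (edgeR adjusted p = 0.406). In the limma fits on log2(FPKM + 0.1) and log2(TPM + 0.1), 4 fast-fibre genes were higher and 2 lower. Beside these changes, the 95% interval of Sox6 stayed between -0.09 and 0.07 on the log2 scale, and its protein and activity were not measured here.

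**Figure D4:**
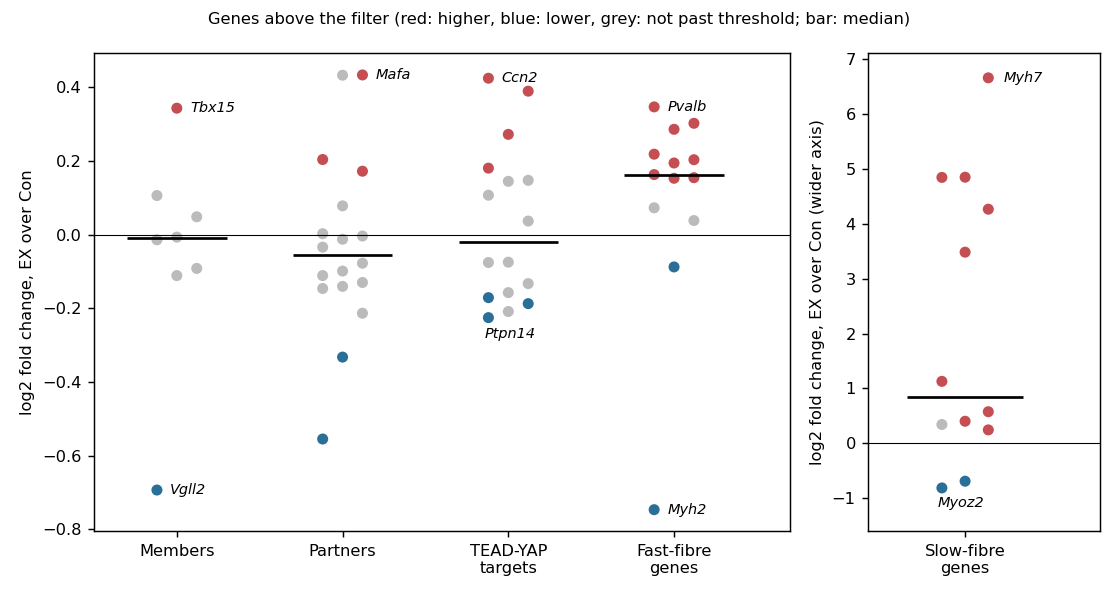
Log2 fold changes of EX over Con (vertical axes, with a wider axis for slow-fibre genes) of the genes above the filter in each list, with a bar at the median. The medians lie at -0.01 for the members, -0.06 for the partners, -0.02 for TEAD-YAP targets, 0.16 for fast-fibre genes and 0.85 for slow-fibre genes.

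The 3 genes whose log2 CPM followed Tbx15 most closely over the 6 libraries were Ndufa11, a subunit of respiratory complex I (Pearson r = 0.998), Jpt1 (0.998) and the complement gene C4b (0.995). For Vgll2 they were Nrap, a myofibril assembly protein (0.999), Svil, an actin-binding protein (0.999), and Acss1, a mitochondrial acetyl-CoA synthetase (0.998). Nrap was at 1654 CPM in Con and 1250 CPM in EX (log2 fold change -0.40). The points are 6 libraries in 2 groups, which share the contrast of Con and EX, and the values are a description.

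Markers of other cell types also differed between the groups, where 9.11% of all genes tested were higher and 8.8% lower. For adipocytes, 4 of 4 markers tested were higher, and the summed level of those listed was 14.0 to 15.3 CPM in Con and 34.7 to 39.1 CPM in EX. For tendon, 3 of 5 were higher, with 170.2 to 185.6 CPM in Con and 244.5 to 261.4 CPM in EX. For regenerating or denervated fibres, 2 of 3 were higher, with 34.1 to 36.3 CPM in Con and 55.2 to 62.2 CPM in EX. Schwann cell markers were lower in 3 of 5, with 86.6 to 93.5 CPM in Con and 65.5 to 68.3 CPM in EX, and those of blood endothelium in 5 of 8, with 700.7 to 715.2 CPM in Con and 609.1 to 626.4 CPM in EX. Of 6 fibro-adipogenic markers, 0 passed the threshold in edgeR, and of 2 cartilage and bone markers tested, 1 was higher. Ibsp, a bone matrix gene of that list under the filter, had counts of 26, 32 and 30 in Con and of 0, 1 and 2 in EX. Mymk, a gene of myoblast fusion, had counts of 1, 0 and 1 in Con and of 24, 18 and 23 in EX. Tbx15, Tead1 and Maf are also expressed outside muscle fibres, and the part of these cells in the members' values was not tested.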

How the data were processed

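Total RNA from hind leg muscle was sequenced as paired 150 bp reads on the DNBseq platform, and the paper names HISAT for matching to GRCm39, whereas the submitters' processing notes name GRCm38.p6, cutadapt, MultiQC and featureCounts. The authors deposited estimated counts, which are not normalized, with FPKM and TPM values that they derived per gene and library, and 6 columns of group means were not used here. No gene positions were taken from the table, because these sources differ on the build.

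Estimated counts were rounded and compared with edgeR 4.0.16 (glmQLFit and glmQLFTest, TMM) in R 4.3.3 over the 10883 genes whose mean FPKM reached 1, with an adjusted p under 0.05 and no fold limit. Genes under this filter came from a fit without it. The test was checked on simulated data. Alternatives were DESeq2 1.42.0, limma 3.58.1 on log2 of FPKM or TPM plus a pseudocount, other scalings and filters, a replicate block and each library left out. Fold changes from limma are on that scale with a pseudocount of 0.1 or 1, and for low genes they come out too small.

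The members and lists were chosen with earlier results of these data known. The genes named are the members, partners and TEAD-YAP targets past the threshold, the 2 largest rises and 2 largest falls of each fibre list, and the 3 genes most correlated with each member past the threshold; other genes named, such as Yap1, Myh4 and Dach2, were chosen after their values were seen. Some partners are counted but not reported by name here. A count of 0 allows up to 3 counts, which is 0.188 to 0.215 CPM. The labels and paper give no batch, and p-values measure the spread between these 6 mice.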

Additional observations from a re-analysis of the deposited data

How the results depend on the processing

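The calls of Tbx15 and Vgll2 held in all 15 alternatives. Of all genes, 1228 passed the threshold in DESeq2 against 1949 in edgeR, and between 1344 and 1857 when 1 library was left out. Leaving the 20 most abundant genes out of the totals and limma on log2(TPM + 0.1) each called 4 members, 2 on the fast side and 2 on the slow side, adding Maf (-0.13 and -0.20) and Tead1 (-0.12 and -0.18). A filter at a mean of 5 FPKM called 2 on the slow side. With 1 library left out, 2 to 4 members were called, 1 to 2 on each side, and 3 to 6 partners. DESeq2 and limma on log2(FPKM + 0.1) and log2(FPKM + 1) called 3 partners. The sign of Six4 turned in limma, to -0.012, -0.011 and -0.049 on log2(FPKM + 0.1), log2(FPKM + 1) and log2(TPM + 0.1), where the median of all genes was -0.06, -0.05 and -0.09, and no such value of Six4 was past the threshold. Without 1 library, Six4 ranged from -0.0039 to 0.10 and Tead4 from -0.078 to 0.099. Samples with the same replicate number showed no shared deviation (correlations of -0.08, -0.05 and -0.03). With 3 libraries per group, this cannot show whether the numbers pair the mice. With a replicate block, 1782 genes (909 higher, 873 lower), 2 members, 4 partners and 6 TEAD-YAP targets were called. The causes of these shifts were not tested.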
